A study of Mus musculus with 44 samples.

Results

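Sst, Penk, Tac2 and Nts encode neuropeptide precursors of the central amygdala (CeA), and their rows were taken by symbol from the deposited expression table, 4 of its 8203 rows. Ribosome-associated RNA had been isolated from amygdala punches of adult Crh-TRAP mice, first-generation progeny heterozygous for a Crh-Cre transgene and for a Cre-dependent eGFP-L10a allele at Rosa26. Cre under the Crh promoter switches on a tagged ribosomal protein, so the pulldown is meant to hold RNA of Crh neurons, and every group carried both alleles. Tone-alone (TA) mice (16) heard 5 tones of 30 s at 6000 Hz. Fear-conditioned (FC) mice (12) heard the same tones, each paired with a 0.65 mA shock of 0.5 s. Extinction (EXT) mice (16) were conditioned in the same way and on the next day heard 30 tones without shock in another context, so EXT mice were sampled a day later relative to training than TA and FC mice. The labels give males and females in each group (10 and 6 in TA, 6 and 6 in FC, 10 and 6 in EXT) and 5 numbered batches. Untrained mice and whole punch RNA were not analysed here, so neither a naive baseline nor the enrichment of a transcript in the pulldown was measured.

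Batches 1, 2 and 5 hold mice of all 3 groups, whereas batches 3 and 4 hold 5 and 1 EXT mice and no other group. In batches 3 and 4, extinction and batch therefore cannot be told apart, and all 6 of those mice had levels under the TA median in all 4 transcripts. Effective library sizes ranged from 12802113 to 20440351 reads.

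Neuropeptides are cut from larger precursors, packed in dense-core vesicles and released to act on G protein-coupled receptors at some distance from the synapse. Sst yields somatostatin, which lowers the activity of neurons that carry its receptors. Penk yields the enkephalins, which act on opioid receptors, and its transcript is also abundant in striatal neurons of the indirect pathway. Tac2 yields neurokinin B, the ligand of the neurokinin receptor encoded by Tacr3, and Nts yields neurotensin, which binds the receptors encoded by Ntsr1 and Ntsr2 and the sorting receptor encoded by Sort1. The lateral part of the CeA is built of inhibitory neurons, and Crh, Sst, Tac2 and Nts are known from overlapping sets of them.

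Sst lies on chromosome 16 at 23889573 to 23890958 (minus strand), Penk on chromosome 4 at 4133531 to 4138819 (minus strand), Tac2 on chromosome 10 at 127724478 to 127731768 (plus strand) and Nts on the same chromosome at 102481756 to 102490486 (minus strand), as GENCODE M21 places them on GRCm38. The noncoding gene A830012C17Rik runs over 499 bases of Penk on the opposite strand, and whether the counting used strand is not given in the sources used here, so reads in that stretch could come from either gene.

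Of the 4 genes, Sst, Tac2 and Nts had an entry in the RefSeq promoter table (build GRCm38.p6). The 250 bases before each RefSeq start were searched on both strands for the cAMP response element TGACGTCA, which CREB family factors bind, for its core TGACG, which the whole element also contains, for its variant TGACATCA and for the AP-1 site TGAGTCA. They are shown because the study concerns CREB, and whether such sites bear on the levels of these genes was not tested. Capitals mark the match, and each line runs 5′ to 3′.
Sst, response element, chr16:23890874-23890903, minus strand: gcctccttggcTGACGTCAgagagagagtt
Nts, AP-1 site, chr10:102490607-102490636, minus strand: aactctttctgTGAGTCAgaaatcctgagc
Nts, element variant, chr10:102490467-102490496, minus strand: ctgtgtagccaTGACATCAtcctcctgctc
Tac2, no match, chr10:127724228-127724477, plus strand: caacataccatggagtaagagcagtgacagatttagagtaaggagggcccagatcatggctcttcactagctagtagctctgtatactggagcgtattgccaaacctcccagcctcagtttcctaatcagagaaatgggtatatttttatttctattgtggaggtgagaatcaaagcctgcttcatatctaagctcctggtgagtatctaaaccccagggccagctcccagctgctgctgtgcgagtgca

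The Sst element spans bases -48 to -41 from the RefSeq start, and GENCODE M21 begins the gene further upstream, so the 30 bases shown fall inside its annotated span. Of the 30 bases shown for the Nts element variant, 20 also lie inside the GENCODE span of Nts, the match included. Nts has its AP-1 site at -207 to -201, its element variant at -67 to -60 and a core element, not shown, at -166 to -162. TGACGTCA occurred in 1.55% of the 32851 promoter windows, TGACATCA in 2.93%, TGAGTCA in 4.46% and the core TGACG in 17.8%. A match describes letters in a window and not the binding of a factor.

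Levels were compared between genes per length, as log2 cpm (reads scaled to library size) per kb of exon. Penk had the highest median, 10.22 (7.75 to 11.56 over 44 mice), which placed it at rank 11 of 8005 genes with a length. Sst followed at 9.71 (8.00 to 10.64), rank 24. Tac2 at 7.23 and Nts at 7.07 lay lower, at ranks 405 and 462. Penk was above Sst in 31 of 44 mice and Tac2 above Nts in 23 of 44, so neither pair had an order that held in all mice, whereas Sst was above Tac2 in 44 of 44. All 4 lay above Crh, whose promoter drives the Cre that switches on the tag. Crh had a median of 5.06 and lay below Nts in 44 of 44 mice. Among the 19 peptide and granin precursors in the table, Penk and Sst were in places 1 and 2, and Tac2 and Nts in places 7 and 8.

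**Figure D1:**
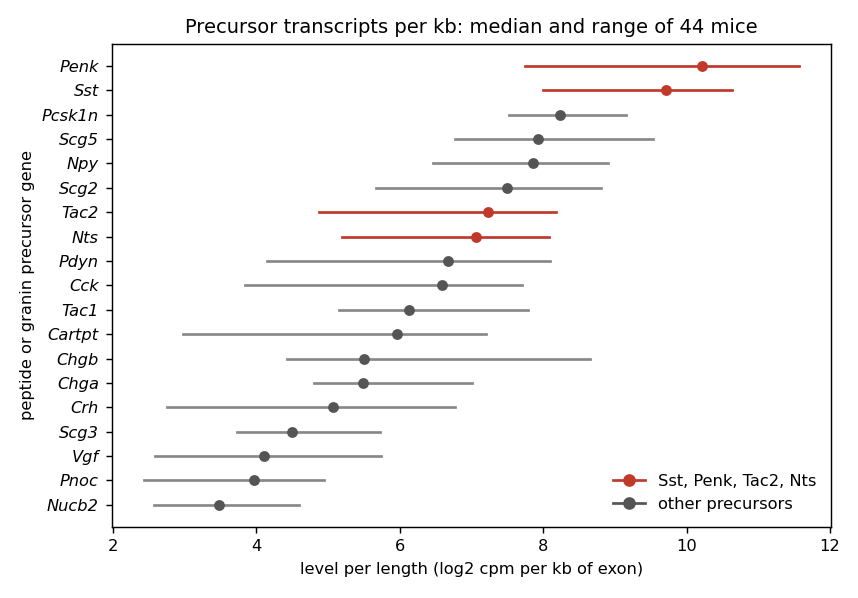
Level per length of 19 peptide and granin precursor transcripts (horizontal axis, log2 cpm per kb of exon), with points for the median and lines for the range of 44 mice. Penk (10.22) and Sst (9.71) lie at the top, Tac2 (7.23) and Nts (7.07) in the middle and Crh (5.06) in place 15.

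The lowest count behind any of them was 569 reads, for Tac2, and the medians over mice were 9928 reads for Sst, 32931 for Penk, 3634 for Tac2 and 2902 for Nts. Between mice of the same batch and group, the SD was 0.53 (log2) for Sst, 0.52 for Penk, 0.69 for Tac2 and 0.57 for Nts, against a median of 0.29 over all genes. The 4 transcripts therefore varied more between like mice than 94.5% to 98.5% of all genes did. In bulk samples such as these, fewer cells of a type and less RNA per cell cannot be told apart.

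The first question was whether these peptide transcripts differed between mice that had learned and extinguished fear and mice that had heard tones alone. Sst had a level of 8.30 log2 cpm in the lowest TA mouse, 9.50 in the median and 10.17 in the highest, against 7.53, 8.80 and 9.94 in EXT mice. Penk ran from 9.75 through 10.97 to 11.98 in TA mice and from 8.46 through 10.46 to 12.25 in EXT mice. The EXT mice reached lower than the TA mice in both genes, and the groups overlapped over most of their range.

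Tac2 had a lowest, median and highest level of 5.72, 7.78 and 8.64 in TA mice and of 5.33, 7.12 and 8.47 in EXT mice. For Nts these were 6.39, 7.49 and 8.36 in TA mice and 5.51, 6.92 and 8.41 in EXT mice. Here too the medians were lower in EXT mice and the groups overlapped. The TA median exceeded 10 of 16 EXT mice in Sst, 11 in Penk, 12 in Tac2 and 12 in Nts.

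With limma over all genes, sex as a factor and batch as a number, the log2 difference of EXT minus TA was -0.70 (SE 0.25) for Sst, -0.76 (SE 0.29) for Tac2, -0.61 (SE 0.23) for Nts and -0.58 (SE 0.32) for Penk. Sst passed the threshold of 0.05 (adjusted p = 0.0443), whereas Nts (adjusted p = 0.0538), Tac2 (adjusted p = 0.0547) and Penk (adjusted p = 0.177) did not. In that fit 11% of all genes were called lower and 10.4% higher. Sst was thus 1 of 4 called lower where the table as a whole gave 11%. Its call was lost in 16 of the 32 fits that left out 1 mouse. It was also lost with library size as a covariate (-0.68, SE 0.34, unadjusted p = 0.0559, adjusted p = 0.7003 in limma). No gene of the table passed in that fit. Median library size was 18015590.5 reads in TA and 15412341 in EXT mice, so library size and group partly coincide there.

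With batch as categories, which takes the difference from batches 1, 2 and 5 alone, none of the 4 passed (adjusted p 0.602 to 0.857) and 0.0244% of all genes were called lower. The differences were then -0.13 for Sst (95% interval -0.55 to 0.29), -0.20 for Tac2 (-0.74 to 0.34), -0.20 for Nts (-0.63 to 0.23) and 0.08 for Penk (-0.36 to 0.53). Leaving out batches 3 and 4 gave -0.13, -0.20, -0.19 and 0.05. For Nts the difference of the first fit lay inside the interval of the second, and for Sst, Tac2 and Penk it lay below it.

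**Figure D2:**
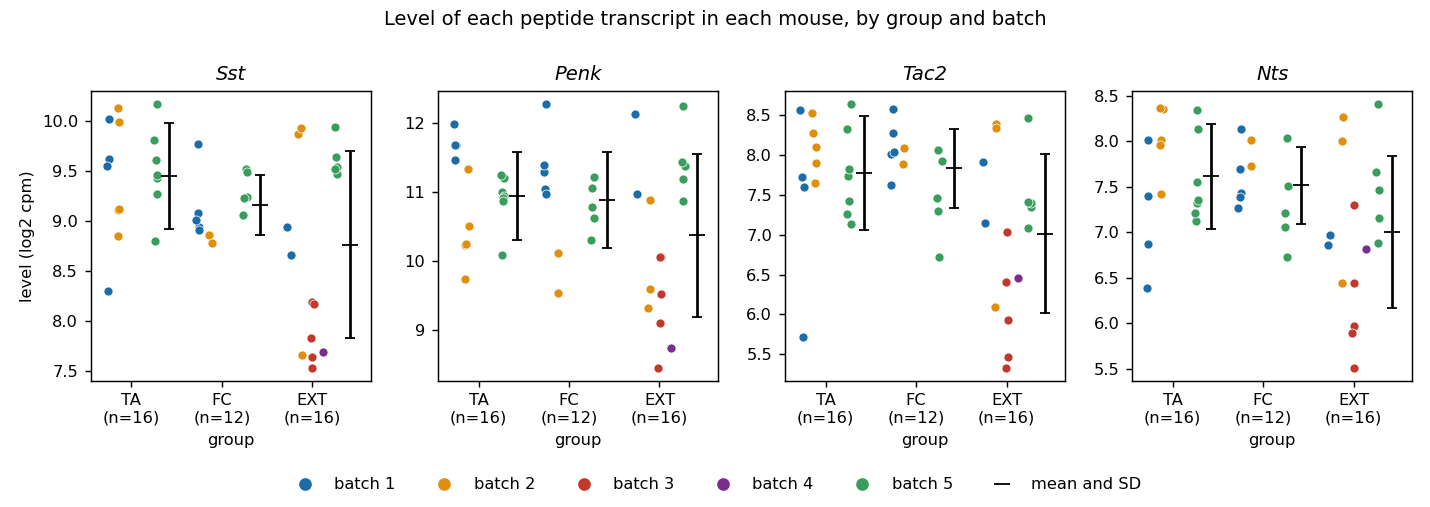
Level (log2 cpm) of Sst, Penk, Tac2 and Nts in each of 44 mice by group, with colours for the batch and black bars for the group mean and SD. In all 4 panels the 6 EXT mice of batches 3 and 4 lie below the TA median, while the 10 EXT mice of batches 1, 2 and 5 have medians of 9.53, 11.08, 7.40 and 7.31 in the order of the panels.

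Within batch 5, with 5 EXT and 7 TA mice, EXT minus TA was 0.12 (SE 0.18) for Sst, 0.53 (SE 0.27) for Penk, -0.22 (SE 0.32) for Tac2 and -0.07 (SE 0.32) for Nts. Within batch 2, with 3 and 5 mice, it was -0.29, -0.49, -0.48 and -0.45 in the same order. EXT mouse 21 of that batch had 7.65 log2 cpm of Sst, 9.32 of Penk, 6.09 of Tac2 and 6.45 of Nts, whereas the other EXT mice of batch 2 had 9.87 and 9.93 of Sst, 9.59 and 10.88 of Penk, 8.35 and 8.39 of Tac2 and 8.00 and 8.27 of Nts. Without mouse 21, a choice made after its values were seen, the differences of batch 2 were 0.46 for Sst, -0.18 for Penk, 0.28 for Tac2 and 0.11 for Nts. Within batch 1, with 2 and 4 mice, the differences were -0.57 for Sst, -0.15 for Penk, 0.12 for Tac2 and -0.25 for Nts. The EXT and TA mice overlapped in every one of these 12 comparisons.

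The 6 EXT mice of batches 3 and 4 had lower medians than the other 10 EXT mice in all 4 genes. Their Sst levels ran from 7.53 through a median of 7.76 to 8.19, all 6 below the lowest TA mouse, against a median of 9.53 in the 10 EXT mice of the other batches. On the linear scale those medians were 217 and 740 cpm. Penk had a median of 9.31 (8.46 to 10.06) against 11.08 in the other EXT mice, Tac2 one of 6.17 (5.33 to 7.03) against 7.40, and Nts one of 6.21 (5.51 to 7.30) against 7.31. Each of the 6 was under the TA median in all 4 genes. Below the lowest TA mouse were 6 of the 6 in Sst, 4 in Penk, 2 in Tac2 and 3 in Nts. Of the other 10 EXT mice, 1 was below it in Sst (mouse 21, 7.65), 2 in Penk and 0 in Tac2 and Nts.

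The mean of these 6 mice minus that of the other 10 EXT mice was -1.47 for Sst, -1.68 for Penk, -1.45 for Tac2 and -1.09 for Nts, and -1.53 for Crh, while the median over all genes was 0.003. Counting the gene itself, 6 of 8203 genes had a difference as low as that of Penk or lower, 12 as low as Sst, 14 as low as Tac2 and 76 as low as Nts. None of the 4 had all 6 mice below all 10, which 0.878% of genes did. For Sst and Tac2 mouse 21 of batch 2 was the 1 mouse of the 10 in the range of the 6, whereas for Penk mouse 51 (9.59) and for Nts both mice of batch 1 (6.86 and 6.97) and others lay there too. These values describe batches of 1 group and have no test.

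Lists of marker genes of other cells moved with the same 6 mice. The summed level of 12 of 12 astrocyte genes was 2318 to 3652 cpm in them and 1068 to 2656 in the other EXT mice, and that of 11 of 12 oligodendrocyte genes was 4428 to 13819 against 1973 to 4664. The 9 of 12 GABAergic genes with a row summed to 1346 to 2173 cpm against 1205 to 1858, and the median of their differences was 0.08 (log2), against 1.08 for the astrocyte and 0.90 for the oligodendrocyte genes. It was -1.79 for the choroid plexus genes, all 4 of them lower, and -0.46 for 13 of 21 genes of central amygdala cell types, whose summed level had a median of 813 cpm in the 6 mice and 1551 in the others. The 4 of 14 choroid plexus genes ranged from 234 to 3196 cpm against 186 to 51048, 4 of 13 glutamatergic genes from 216 to 529 against 115 to 486, and 13 of 14 striatal genes from 1121 to 3389 against 1461 to 6508. None of the 12 microglial and endothelial genes had a row. Effective library sizes were 12802113 to 17805609 in the 6 mice and 13054305 to 16787593 in the others. No listed gene with a row could be at 0, since genes under a minimum cpm in any sample had been left out. The part of these differences in the peptide values was not tested.

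The second question was whether conditioning alone differed from tones alone, on the same day. Levels in FC mice ran from 8.78 through 9.07 to 9.77 for Sst, from 9.53 through 11.01 to 12.27 for Penk, from 6.72 through 7.97 to 8.59 for Tac2 and from 6.73 through 7.47 to 8.13 for Nts. FC and TA mice overlapped in all 4 genes. FC minus TA was -0.28 (SE 0.17) for Sst, -0.12 (SE 0.23) for Penk, 0.07 (SE 0.23) for Tac2 and -0.08 (SE 0.19) for Nts, with adjusted p from 0.574 to 0.961 in limma. No gene of the table passed in either coding of batch (0%), while 853 and 1379 genes had an unadjusted p below 0.05.

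Sst had the smallest unadjusted p of the 4 (0.0971 in limma). FC mice lay below the TA median in 10 of 12 cases for Sst, 5 for Penk, 4 for Tac2 and 6 for Nts. With batch as categories the difference of Sst was -0.30 (95% interval -0.65 to 0.05). It was -0.23 within batch 1, -0.62 within batch 2, where there were 2 FC mice, and -0.19 within batch 5. Penk was -0.27 with batch as categories (95% interval -0.60 to 0.05), and -0.31, -0.59 and -0.09 within batches 1, 2 and 5. Neither gene passed the test over all genes. For Tac2 and Nts the sign differed between batches, with 0.70 and 0.41 in batch 1 and -0.27 and -0.27 in batch 5.

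The third comparison, EXT minus FC, shares its EXT mice with the first. The differences were -0.46 (SE 0.26) for Sst, -0.49 (SE 0.36) for Penk, -0.82 (SE 0.29) for Tac2 and -0.56 (SE 0.24) for Nts. None passed (adjusted p 0.219 to 0.438), nor did any gene of the table with either coding of batch (0%), while 1587 and 344 genes had an unadjusted p below 0.05. With batch as categories Sst was 0.15 and Penk 0.38, the opposite sign, and Tac2 and Nts were -0.21 and -0.13. Within batches 1, 2 and 5, Tac2 was -0.58, -0.38 and 0.05 and Nts -0.67, -0.30 and 0.20. Within batch 5, Sst was 0.31 (SE 0.12) and Penk 0.62 (SE 0.28) in 5 EXT and 5 FC mice, with overlapping values.

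**Figure D3:**
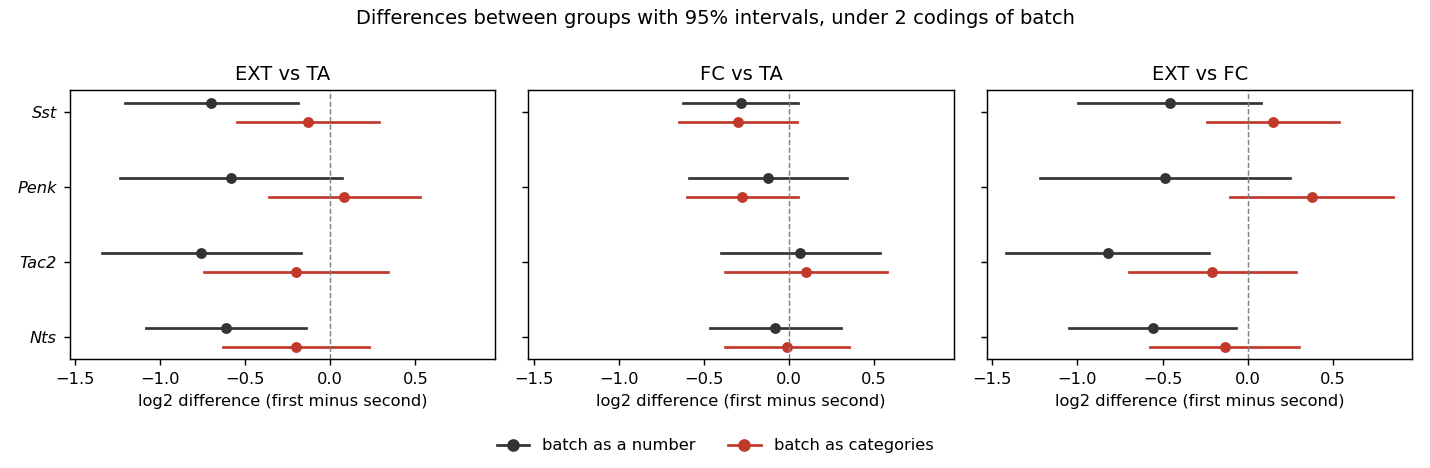
Log2 difference (horizontal axis) of Sst, Penk, Tac2 and Nts in the 3 comparisons, with points for the limma estimate and lines for its 95% interval, in black with batch as a number and in red with batch as categories. In EXT vs TA the black points lie from -0.76 to -0.58 and the red ones from -0.20 to 0.08, and all red intervals include 0 in all 3 panels.

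Batches 1, 2 and 5, which share all groups, were then compared with group and sex held. Penk differed between them (adjusted p = 1.64e-06, moderated F test in limma), in a table in which 55.3% of all genes did. It was highest in batch 1, where 11 mice ran from 10.97 through 11.47 to 12.27 log2 cpm. Batch 2 ran from 9.32 through 10.17 to 11.34 in 10 mice and batch 5 from 10.09 through 10.999 to 12.25 in 17 mice. Relative to batch 1, Penk was -1.64 in batch 2 and -0.72 in batch 5. In TA mice alone the range between batches was 1.38 (adjusted p = 0.00336).

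Sst, Tac2 and Nts did not pass this test, with ranges of 0.31, 0.28 and 0.37 between the 3 batches (adjusted p 0.368, 0.486 and 0.254). In TA mice alone their ranges were 0.08, 0.62 and 0.86 (adjusted p 0.968, 0.507 and 0.119). Batch accounted for 52.3% of the variance of Penk among these 38 mice, 7.75% of that of Sst, 3.78% of that of Tac2 and 14.7% of that of Nts, beside a median of 24.9% over all genes. Crh had 48.7% and passed with a range of 1.35. The share held by group was 0.37% for Penk and 5.66%, 2.86% and 2.29% for Sst, Tac2 and Nts. What the numbered batches differed in is not given in the sources used here.

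Males and females were compared with group and batch held. The male minus female difference was 0.29 (SE 0.17) in Sst, 0.15 (SE 0.18) in Penk, 0.38 (SE 0.22) in Tac2 and 0.35 (SE 0.18) in Nts. None passed in limma (adjusted p = 0.9998 for all 4), and no gene of the table did (0%, while 339 had an unadjusted p below 0.05). Without batches 3 and 4 the differences were 0.30, 0.28, 0.35 and 0.33 in the same order (adjusted p = 0.914). In EXT mice the median of Nts was 7.39 in 10 males and 6.65 in 6 females, and that of Sst 9.50 and 8.24. In TA mice the medians were 7.69 and 7.47 for Nts and 9.50 and 9.51 for Sst. The difference between the sexes in EXT minus TA was 0.53 (SE 0.47) for Nts and 0.44 (SE 0.52) for Sst, or 0.66 (SE 0.37) and 0.57 (SE 0.37) with batch as categories, and no gene of the table passed that test or the one for FC minus TA (0% in both, while 339 and 540 had an unadjusted p below 0.05). The sex labels were taken as given.

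How the 4 transcripts varied together was measured between mice. The mean of each batch and group was subtracted, which left 39 mice in 8 cells of at least 3 mice. Then 10 pairs of the 4 genes and Crh were correlated, with permutation of mice within cells. Sex was not removed, and males and females of a cell were permuted together. Tac2 and Nts had the highest correlation (Pearson r = 0.91, Spearman rho = 0.91). Sst had r = 0.80 with Tac2 and 0.73 with Nts. Crh had r = 0.88 with Tac2, 0.87 with Nts and 0.82 with Sst. For these 6 pairs the permutation p of r was 1e-05, the smallest that 100000 permutations can give, and 1.67e-05 after adjustment over the 10 pairs, and the adjusted permutation p of rho was at most 6.67e-05. With only group means removed, in all 44 mice, r of Crh was 0.70 with Tac2, 0.55 with Nts, 0.64 with Sst and 0.75 with Penk. That setting leaves differences between batches in the values.

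Without the 2 mice farthest from the median of the first gene, r of these pairs was 0.65 to 0.91. Within single batches r of Tac2 and Nts was 0.86 in 9 mice of batch 1, 0.96 in 8 mice of batch 2 and 0.93 in 17 mice of batch 5, and r of Sst and Tac2 was 0.71, 0.96 and 0.78. Mouse 21 and the TA mouse 10 of batch 1 lie at the low end. Mouse 10 had 8.30 log2 cpm of Sst, 5.72 of Tac2 and 6.39 of Nts, the lowest of any TA mouse in each, while its Penk was 11.68.

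Penk followed the other 3 less closely in value. It had r = 0.30 with Tac2 (rho = 0.27, permutation p = 0.123 and 0.145) and r = 0.31 with Nts (rho = 0.24, permutation p = 0.119 and 0.207). Neither passed after adjustment. With Sst it had r = 0.50 (rho = 0.46, adjusted permutation p = 0.00781 and 0.0136) and with Crh r = 0.49 (rho = 0.48, adjusted permutation p = 0.0146 and 0.0113). Within batches r of Penk and Tac2 was -0.21, 0.60 and 0.24 for batches 1, 2 and 5. The label of co-expressed peptides therefore described Sst, Tac2 and Nts between mice and described Penk in part. Whether the correlations of Penk differ from those of the other 3 was not tested, and correlation between bulk samples does not say whether transcripts share a cell.

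**Figure D4:**
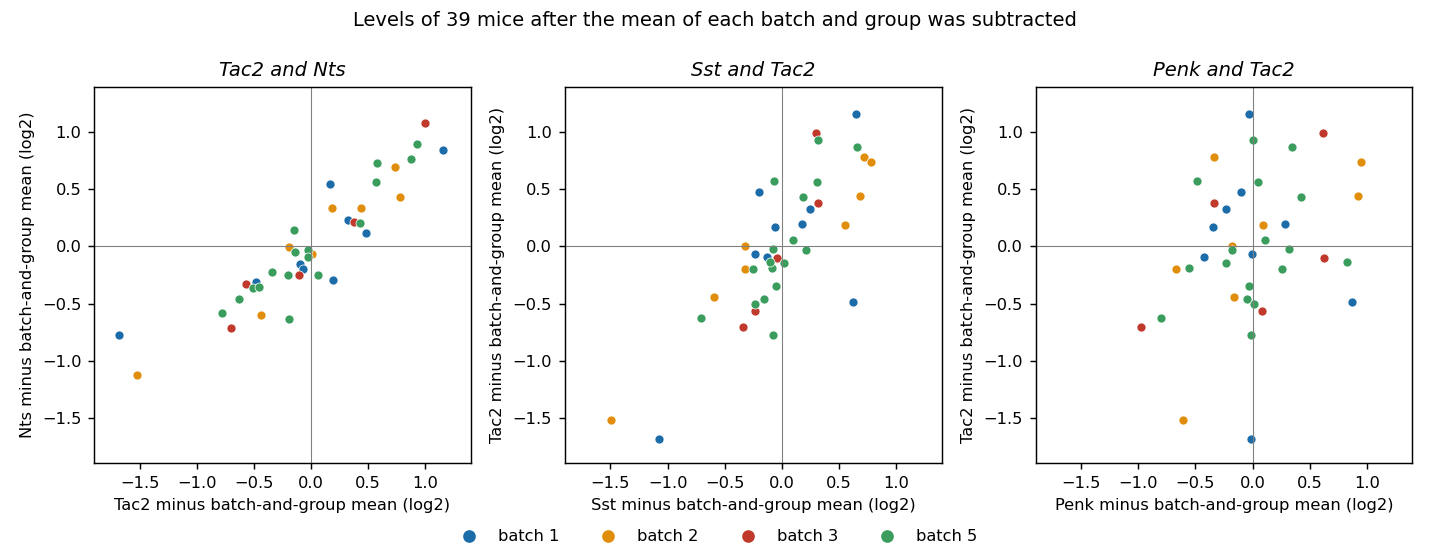
Levels of 39 mice after the mean of each batch and group was subtracted (both axes, log2), coloured by batch, for Tac2 and Nts (r = 0.91), Sst and Tac2 (r = 0.80) and Penk and Tac2 (r = 0.30). The points follow a diagonal in the first panel and scatter in the third, and the pair of points farthest to the left in the first panel are mice 10 and 21.

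The genes most like each transcript were read from the same 39 mice, as a description. Of 8202 other genes, Nts was the closest to Tac2 and Tac2 the closest to Nts, and Crh came next for both. For Sst the first places were Crh and Tac2, and Nts was in place 6. Members aside, Crh, Pnoc (the nociceptin precursor, r = 0.85), Itm2c (0.77), Wfs1 (0.77) and Spink8 (0.74) were most like Tac2. Crh, Pnoc (0.84), Tmem35a (0.74), Slc25a14 (0.74) and Syt5 (0.73) were most like Nts. For Sst they were Crh, Dhrs7b (0.75), Tsta3 (0.74), Pdyn (the prodynorphin gene, 0.74) and Fam173a (0.73).

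Penk was most like Elmod1 (r = 0.87), Lamp5 (0.83), Adam23 (0.82), Ano3 (0.78) and Gabra4 (0.77, a GABA-A receptor subunit), none of them among the 5 of another member. With the 4 members left out of the ranking, Lamp5 was also in place 2 for Crh (r = 0.75). Among all 8202 other genes, Sst, Nts and Tac2 were in places 221, 995 and 1094 for Penk. The 13 striatal genes with a row had a median r of 0.55 with Penk (0.31 to 0.75), and 69.2% of them were above 0.5 where 2.72% of all genes were. Their median r was -0.02 with Sst, -0.09 with Tac2 and -0.16 with Nts. Astrocyte genes had a median r of -0.39 with Penk and -0.38 with Sst, and of -0.08 and -0.06 with Tac2 and Nts. The 4 choroid plexus genes had a median r of 0.44 with Sst, 0.24 with Penk, 0.22 with Tac2 and 0.03 with Nts. Summed striatal levels ranged from 1281 to 3026 cpm in TA mice, 1002 to 3910 in FC mice and 1121 to 6508 in EXT mice, and their part in the Penk values was not tested.

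**Figure D5:**
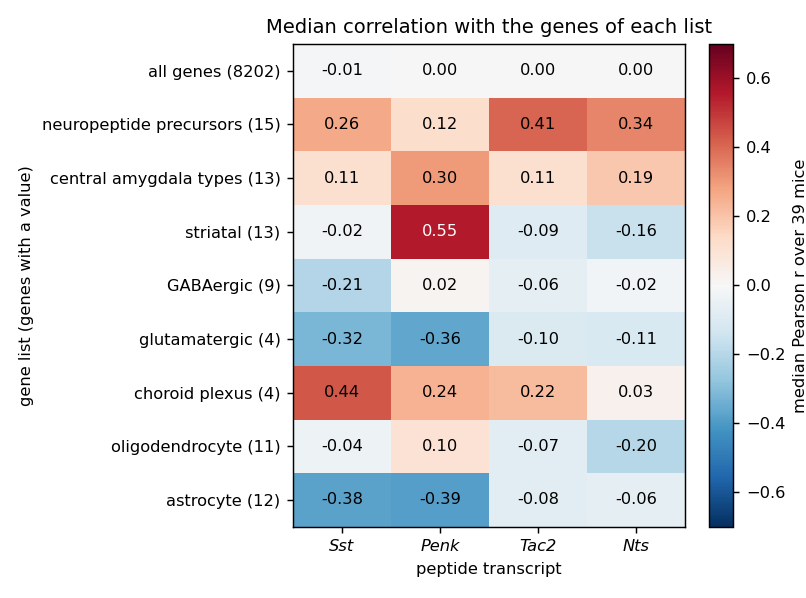
Median Pearson r over 39 mice between each peptide transcript (columns) and the genes of each list (rows, with the number of genes that had a value), after the mean of each batch and group was subtracted. The striatal list has its highest median with Penk (0.55), and the neuropeptide precursors have theirs with Tac2 (0.41) and Nts (0.34).

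Of 15 listed genes of receptors for the 4 peptides and their families, 4 were in the table, and 3 of them (Sstr2, Ntsr2 and Sort1) encode receptors for one of the 4. Sstr2, a somatostatin receptor, had a mean of 4.65 log2 cpm in TA, 4.62 in FC and 4.56 in EXT mice. Sort1 had means of 5.76, 5.73 and 5.67, and Oprl1, the nociceptin member of the opioid receptor family, 5.75, 5.79 and 5.59. Ntsr2, a neurotensin receptor known from astrocytes, had 6.35, 7.04 and 6.96, and its difference of 0.61 (SE 0.23) in EXT minus TA had an adjusted p of 0.0557 in limma and was 0.20 with batch as categories. In FC minus TA it was 0.71 (SE 0.19, adjusted p = 0.303 in limma). The 12 astrocyte genes all had a positive difference there, with a median of 0.41. So did the 11 oligodendrocyte genes, with a median of 0.33, while 51.3% of all genes were lower. Whether these lists bear on the Ntsr2 values was not tested. No receptor passed the test in any of the 3 comparisons.

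Other precursors had 15 of 52 listed genes in the table. In EXT minus TA with batch as a number, 5 of the 15 were called lower (beside 11% of all genes) and 2 higher (10.4%), with a median of -0.31 against 0.01 over all genes. The lower ones were Crh (-0.93, SE 0.29, adjusted p = 0.0234), Pdyn (-0.92, SE 0.31, adjusted p = 0.0362), Vgf (-0.74, SE 0.21, adjusted p = 0.0190), Scg2 (-0.68, SE 0.23, adjusted p = 0.0350) and Pnoc (-0.53, SE 0.17, adjusted p = 0.0282). Nucb2 (0.37) and Pcsk1n (0.39), whose product inhibits a prohormone convertase, were called higher. With batch as categories none of the 15 passed and the median was -0.10, the 5 being -0.38 for Vgf, -0.35 for Scg2, -0.32 for Crh, -0.21 for Pdyn and -0.21 for Pnoc.

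Among 12 of 26 listed genes of peptide processing and breakdown, Thop1, a peptidase that cleaves neurotensin and other short peptides, was called lower (-0.61, SE 0.13, adjusted p = 0.0130), and Pcsk1n was the only one called higher, 1 of 12 in each direction beside 11% and 10.4% of all genes. Thop1 was -0.41 (adjusted p = 0.145) with batch as categories. Among 22 of 26 genes of dense-core vesicles, 4 were called lower (beside 11% of all genes), the cargo genes Scg2 and Vgf together with Baiap3 (-0.63, SE 0.20, adjusted p = 0.0295), which acts in vesicle traffic, and Rab3a (-0.43, SE 0.13, adjusted p = 0.0245), a vesicle GTPase. Baiap3 was -0.70 and Rab3a -0.15 with batch as categories, and neither passed. In FC minus TA and in EXT minus FC none of these genes passed, with list medians of 0.09 and -0.30 for the precursors and 0.01 and -0.17 for the vesicle genes. With batch as categories the EXT minus FC medians were 0.02 and -0.08.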

How the data were processed

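Per the labels and the study's methods, the authors used Trimmomatic 0.36, STAR with GRCm38, SAMtools and edgeR, left out outlying samples and any gene under a minimum cpm in some sample, and deposited log2 cpm values in the form limma voom gives, with 0.5 added to each read count. Whole reads were solved back for 360932 of 360932 values (tolerance 0.05 reads). A gene below the minimum in any sample has no row, so lists were read only from genes in the table.

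Pairs of groups entered a linear model per gene with moderated variance (limma 3.58.1, R 4.3.3), tested two-sided, with sex as a factor and batch as a number, and with Benjamini-Hochberg adjustment over all genes (threshold 0.05). The methods state control for batch and sex without naming the coding. Batch, sex and the interaction of sex with group were tested in the same way, and no interaction of batch with group was tested. Correlations used 100000 permutations in Python 3.11.15. Each mouse is 1 sample. The genes, lists and tests were chosen with earlier results of these data known. Besides the 4 genes and Crh, the text names the 5 genes most like each, listed precursors, receptors, processing and vesicle genes that passed in any comparison, and every receptor with a value, while marker lists are given as counts and sums. Exon lengths came from GENCODE M21 and promoters from RefSeq. The methods were tested on simulated data. For the limma fits, batch effects were simulated in the coding then fitted, so this could not show which coding suits these batches. Alternatives were all groups fitted together, no batches 3 and 4, no batch term, batch as categories, a mean log2 value of at least 5, quantile normalization, 2 reads added, voom weights, trended and robust eBayes, library size as a covariate and leaving out each mouse. Batch as categories for the sex differences and the omission of mouse 21 from batch 2 were chosen after seeing the data.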

Additional observations from a re-analysis of the deposited data

Results flagged for a closer look

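In groups of 1 condition and sex, 3 of 24 tests found a mouse whose gap to its nearest neighbour was large for the range of its group (Dixon's test at the 95% level, which chance passes in about 1 group of 20). Tac2 was 5.72 log2 cpm in TA female mouse 10, with the next of 6 mice at 7.73. Tac2 was 6.72 in FC male mouse 47, with the next of 6 mice at 7.89. Penk was 9.75 in TA female mouse 1, with the next of 6 mice at 10.999, and that mouse is of batch 2, in which Penk was lowest of the shared batches.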

How the results depend on the processing

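In EXT minus TA, Sst was no longer past the threshold with batch as categories (-0.13), without batches 3 and 4 (-0.13) and with library size as a covariate (-0.68), and Penk changed sign in the first and second of these (0.082 and 0.046). Tac2 and Nts passed when all 3 groups were fitted together (-0.75 and -0.61), with a mean log2 value of at least 5 (-0.76 and -0.61) and after quantile normalization (-0.79 and -0.64). The count of genes past the threshold was 1755 and became 2 with batch as categories, 3 without batches 3 and 4 and 0 with library size as a covariate, where 449 had an unadjusted p under 0.05. In EXT minus FC, Sst was 0.15 and Penk 0.38 with batch as categories, 0.093 and 0.12 without batches 3 and 4, and 17 genes in place of 0 passed when all 3 groups were fitted together. The correlation of Penk and Tac2 passed when only group means were removed in 44 mice (r = 0.35), a setting that also moved r of Nts and Crh from 0.87 to 0.55 and of Penk and Crh from 0.49 to 0.75. The cause of these changes was not tested. The settings without batches 3 and 4 or with batch as categories take the difference from fewer mice. The setting with only group means removed leaves differences between batches in the values.

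Leaving out 1 mouse at a time, EXT minus TA was -0.78 to -0.60 for Sst, -0.88 to -0.63 for Tac2 and -0.69 to -0.49 for Nts. Sst lost its call (adjusted p up to 0.0840) without any 1 of TA mice 4, 5, 8, 9, 31, 33, 35, 36 and 38 or EXT mice 21, 22, 23, 25, 44, 53 and 55. Tac2 gained one without TA mouse 10 or 37 or EXT mouse 24, 28, 51, 52 or 59 (adjusted p down to 0.0283), and Nts without TA mouse 10, 35, 37 or 39 or EXT mouse 28, 51, 52, 57 or 59 (down to 0.0246). The count of genes ran from 1079 to 2209, with 1079 without EXT mouse 53, 1103 without 21, 1105 without 25 and 1144 without 22. In FC minus TA, Penk ran from -0.25 to 0.0024, Nts from -0.18 to 0.012 and Tac2 from -0.12 to 0.18, and the count from 0 to 2 (1 without mouse 43, 2 without mouse 19). In EXT minus FC the count ran from 0 to 1 (1 without mouse 26). No paired analysis was made, because the groups hold different mice and the labels give no pairing between them.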
